A study of Homo sapiens with 6 samples.

Results

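The genes of mitosis, the kinetochore and the condensin complex were followed in RD cells, an established human line of embryonal rhabdomyosarcoma, after knockdown of TAK1. The members were 51 genes chosen by symbol, with earlier results of these data known. All 51 were found among the 58735 rows of the count table. Kinesin motors other than CENPE were left out of the list. RD cells had been transduced with lentivirus carrying scrambled shRNA (n = 3) or TAK1 shRNA (n = 3), and poly(A) RNA was sequenced. The study describes 2 TAK1 shRNA sequences and names 1 of them for RNA-seq, and its shRNA vector was a pLKO.1 plasmid with mCherry and a puromycin marker. A change brought by loss of TAK1 and a change brought by that shRNA sequence cannot be told apart in these samples. The labels do not say that the samples of a group came from separate transductions, so p-values measure the spread between these samples, which may be technical. The time of harvest was not given in the sources used here.

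Mitosis is driven by the kinase CDK1 bound to cyclin B, with Polo-like kinase and Aurora kinases acting on centrosomes, chromosomes and the spindle. Condensin folds replicated DNA into compact chromosomes, and kinetochores built on the centromere attach them to spindle microtubules. The spindle checkpoint holds back the anaphase-promoting complex until every kinetochore is attached, after which securin and cyclin B are destroyed and the cell divides. Transcripts of many of these genes, though not of all, are low in resting cells and rise together late in the cell cycle. Their promoters are known for the cell cycle genes homology region (CHR), which the DREAM and MYBL2-FOXM1 complexes bind, and for CCAAT boxes, which NF-Y binds.

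Promoter windows were given for 43 members and hold 250 bases before and 50 after the annotated start (RefSeq, GRCh38.p14). They were searched on both strands for a CHR (TTTGAA or TTCGAA) and a CCAAT box (CCAAT). The 4 windows printed next belong to the downregulated members with the lowest fold changes that held both motifs, and they show the motifs where the change was largest. Each runs 5′ to 3′ on the strand of its gene, and capitals mark a CHR or a CCAAT box, read as TTCAAA or ATTGG where the match is on the other strand.
ECT2, chr3:172750476-172750775, plus strand: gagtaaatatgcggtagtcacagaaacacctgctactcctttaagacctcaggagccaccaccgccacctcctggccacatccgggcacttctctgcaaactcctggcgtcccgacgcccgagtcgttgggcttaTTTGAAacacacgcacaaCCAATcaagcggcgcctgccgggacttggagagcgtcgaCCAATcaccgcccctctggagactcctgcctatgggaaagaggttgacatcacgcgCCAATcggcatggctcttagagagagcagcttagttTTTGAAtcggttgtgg
SPC25, chr2:168890381-168890680, minus strand: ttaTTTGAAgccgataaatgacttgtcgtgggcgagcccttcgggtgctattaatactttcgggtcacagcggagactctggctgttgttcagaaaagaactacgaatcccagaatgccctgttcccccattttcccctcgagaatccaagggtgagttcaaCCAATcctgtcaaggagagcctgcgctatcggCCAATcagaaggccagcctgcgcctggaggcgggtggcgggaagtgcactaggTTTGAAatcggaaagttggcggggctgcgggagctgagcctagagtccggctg
ZWINT, chr10:56361210-56361509, minus strand: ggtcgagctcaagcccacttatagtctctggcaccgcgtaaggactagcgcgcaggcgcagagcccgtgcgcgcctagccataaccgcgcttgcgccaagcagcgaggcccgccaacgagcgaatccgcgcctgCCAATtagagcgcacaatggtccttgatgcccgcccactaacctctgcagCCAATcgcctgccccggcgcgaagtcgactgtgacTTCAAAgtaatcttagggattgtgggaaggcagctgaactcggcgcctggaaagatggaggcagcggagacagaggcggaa
NUSAP1, chr15:41332631-41332930, plus strand: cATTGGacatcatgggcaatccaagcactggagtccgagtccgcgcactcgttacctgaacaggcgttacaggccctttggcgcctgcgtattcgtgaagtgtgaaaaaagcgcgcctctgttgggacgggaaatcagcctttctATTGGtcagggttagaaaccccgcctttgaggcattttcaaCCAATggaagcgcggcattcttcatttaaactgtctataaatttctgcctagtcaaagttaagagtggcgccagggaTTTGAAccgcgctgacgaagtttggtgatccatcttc

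The next 2 windows belong to the members with the smallest absolute fold changes among those with no CHR in the window. Each has CCAAT boxes, in capitals. The printed windows were picked by motif and fold change together, so they cannot show whether a CHR goes with a fall. Of all members with a window, 18 of 31 with a CHR and 8 of 12 without were downregulated.
NEK2, chr1:211675572-211675871, minus strand: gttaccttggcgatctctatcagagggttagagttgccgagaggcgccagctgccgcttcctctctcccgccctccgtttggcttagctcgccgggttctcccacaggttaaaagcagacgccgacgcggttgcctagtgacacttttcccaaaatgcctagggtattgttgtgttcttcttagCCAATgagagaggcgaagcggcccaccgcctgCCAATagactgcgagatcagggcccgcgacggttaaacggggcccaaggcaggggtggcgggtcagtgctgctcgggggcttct
SPC24, chr19:11155733-11156032, minus strand: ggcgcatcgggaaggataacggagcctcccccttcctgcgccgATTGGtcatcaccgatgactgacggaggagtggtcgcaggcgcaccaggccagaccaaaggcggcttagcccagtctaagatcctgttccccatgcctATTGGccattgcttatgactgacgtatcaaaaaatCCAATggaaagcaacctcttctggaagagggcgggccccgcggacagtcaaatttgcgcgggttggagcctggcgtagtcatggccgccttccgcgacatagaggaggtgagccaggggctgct

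MAP3K7, the gene that encodes TAK1, was at 77.9, 76.5 and 77.6 CPM (counts scaled to library size and by the trimmed mean of M-values) in the scrambled shRNA samples. It was at 30.5, 33.6 and 29.9 CPM in the TAK1 shRNA samples, a log2 fold change of -1.30 (SE 0.0615, edgeR adjusted p = 4.45e-14). Total counts ran from 28839898 to 34469323 per sample, and the common biological coefficient of variation was 5.67%. All 7 muscle lineage markers were expressed, among them MYOD1 at 263 ± 8.03 CPM in the scrambled samples. EPCAM had 2 to 15 counts per sample and CDH1 and CDH5 had 0 in all samples, while the keratin gene KRT18 was at 56.1 ± 3.61 CPM in scrambled and 26.4 ± 1.10 CPM in TAK1 shRNA samples. PTPRC had 0 to 3 counts per sample, CD68 had 0 to 1 and PECAM1 had 0 to 5.

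The mRNA levels of many of these genes were modestly lower in TAK1 knockdown RD cells. Of the 51 members, all of which were expressed highly enough to be tested, 30 were downregulated (58.8%), 0 were upregulated and 21 were not called. A call needed an adjusted p below 0.05 together with a log2 fold change of 0.25 or more in either direction, by edgeR's quasi-likelihood test over 15935 genes. Over all genes tested, 11.3% were downregulated and 11.8% were upregulated by the same rule. Because the members were chosen with earlier results known, the shares set side by side here and below are descriptions and not tests. With scaling by library size alone, 19 members were downregulated, and AURKB, BUB3 and UBE2C were among those that lost the call. At the adjusted p alone 38 members were lower (74.5%), against 17.2% of all genes tested. The 0 upregulated members stood at 0 also with DESeq2 and with limma voom, and at an unadjusted edgeR p under 0.05 there were 2 higher and 41 lower. The share of all genes tested at that unadjusted p was not computed, so no conclusion is drawn from these counts. The median log2 fold change of the members was -0.27, a fall of 16.9%, and that of all genes tested was 0.018.

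In 40 members (78.4%) all 3 TAK1 shRNA samples lay below all 3 scrambled samples, against 22.2% of all genes tested. In 2 members, CDC25B and SPC24, all 3 lay above, which held for 3449 of the 15935 genes tested. In 9 members the groups overlapped. HMMR was the downregulated member with overlapping groups. The members' summed level was 8862, 9054 and 9102 CPM in the scrambled samples and 7262, 7668 and 7611 CPM in the TAK1 shRNA samples, so that the groups did not overlap. In bulk RNA, fewer cells in or near mitosis and less RNA per such cell cannot be told apart. The share of counts on mitochondrially encoded genes was 0.825 to 0.960% in scrambled and 1.02 to 1.10% in TAK1 shRNA samples, and its part in the members' change was not tested.

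**Figure D1:**
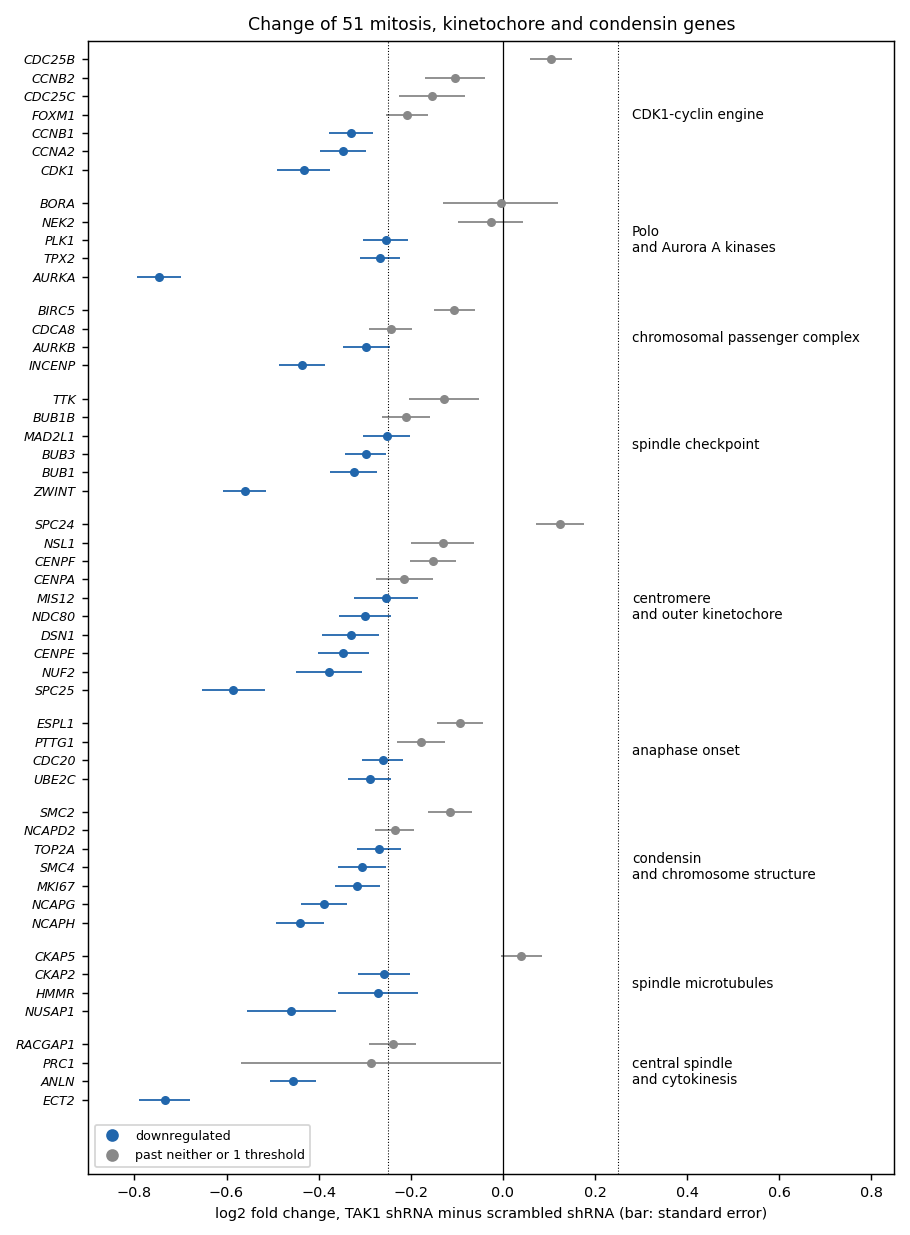
The log2 fold change of TAK1 shRNA over scrambled shRNA is on the x axis, with the standard error as a bar, for 51 genes grouped by role on the y axis. Blue points are the 30 downregulated genes, grey points are the 21 others, and dotted lines mark a change of 0.25 in each direction. Only CDC25B, SPC24 and CKAP5 lie to the right of 0.

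CDK1, CCNA2 and CCNB1, which drive the cell into mitosis, fell. CDK1, the kinase itself, was at 173, 194 and 195 CPM in the scrambled samples and at 129, 151 and 136 CPM in the TAK1 shRNA samples. Its log2 fold change was -0.43 (SE 0.0572, edgeR adjusted p = 1.67e-06), and the groups did not overlap. CCNA2, the cyclin A of S and G2 phase, was at 162, 166 and 175 CPM and then at 128, 139 and 129.5 CPM (log2 fold change -0.35, SE 0.050, edgeR adjusted p = 5.88e-06). CCNB1, the main mitotic cyclin, was at 229, 248 and 236 CPM and then at 182, 198 and 186 CPM (log2 fold change -0.33, SE 0.0480, edgeR adjusted p = 6.44e-06). In both cyclins every TAK1 shRNA sample was below every scrambled sample. The second mitotic cyclin, CCNB2, went from 52.6 ± 3.58 to 49.0 ± 2.63 CPM with overlapping groups (log2 fold change -0.10, edgeR adjusted p = 0.237).

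CDC25B and CDC25C, phosphatases that remove inhibitory phosphates from CDK1, did not pass the test. CDC25B was at 195, 191 and 189 CPM in the scrambled and at 212, 204 and 202 CPM in the TAK1 shRNA samples. All 3 TAK1 shRNA samples were higher, by a log2 fold change of 0.10 (SE 0.0450, edgeR adjusted p = 0.0789). CDC25C had a log2 fold change of -0.15 (edgeR adjusted p = 0.102). FOXM1, a transcription factor of G2 and mitotic genes, went from 170.1 ± 2.97 to 147 ± 3.64 CPM. At -0.21 (edgeR adjusted p = 0.000983) it passed the adjusted p but not the fold threshold. In all, 3 of the 7 genes of this group were downregulated. Beside this count and those of the role groups below stand the 11.3% of all genes tested that were downregulated. Differences from that share were not tested for these small groups.

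AURKA and ECT2 had the lowest log2 fold changes of the members, within their standard errors of each other. The product of AURKA, Aurora A, matures centrosomes and builds the spindle, and activates Polo-like kinase together with Bora. AURKA was at 159.8, 161 and 157 CPM in the scrambled samples and at 95.7, 92.6 and 96.4 CPM in the TAK1 shRNA samples. It fell by 40.4%, a log2 fold change of -0.75 (SE 0.0475, edgeR adjusted p = 7.44e-12), and the gap between the groups was far wider than the spread within either. The gene has 9 exons in its canonical transcript (ENSG00000087586.18, minus strand of chromosome 20, 56369389 to 56392337, GRCh38), and no exon of another GENCODE 44 gene overlaps its exons. Across the alternatives in processing its log2 fold change stayed between -0.77 and -0.70.

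The partners of AURKA moved less. TPX2, which activates Aurora A on spindle microtubules, went from 471 ± 4.11 to 392 ± 16.4 CPM (log2 fold change -0.27, edgeR adjusted p = 2.86e-05). PLK1, the Polo-like kinase, had a log2 fold change of -0.25 (edgeR adjusted p = 0.000185). BORA was at 7.84, 9.21 and 10.5 CPM in the scrambled and at 7.80, 10.3 and 9.27 CPM in the TAK1 shRNA samples, with full overlap between the groups. Its log2 fold change was -0.0044 (SE 0.125, edgeR adjusted p = 0.985), and its sign turned when 1 library was left out, to 0.10 without scrambled replicate 3 and to 0.094 without TAK1 replicate 1. NEK2, a kinase that separates centrosomes, had a log2 fold change of -0.027 (edgeR adjusted p = 0.812), which became 0.037 without scrambled replicate 2 and 0.018 without TAK1 replicate 1.

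In the chromosomal passenger complex, which corrects faulty attachments, 2 of 4 genes were downregulated. INCENP, the scaffold of the complex, was at 146, 134 and 134 CPM in the scrambled samples and at 101, 103 and 101 CPM in the TAK1 shRNA samples (log2 fold change -0.44, SE 0.050, edgeR adjusted p = 1.94e-07). AURKB, its kinase, had a log2 fold change of -0.30 (edgeR adjusted p = 5.88e-05). CDCA8, which encodes borealin, reached -0.24 (edgeR adjusted p = 0.000202), just short of the fold threshold. BIRC5, which encodes survivin, was at 208, 211 and 214 CPM and then at 201, 189 and 199 CPM. Its log2 fold change of -0.11 (SE 0.0453) had an edgeR adjusted p of 0.078. All 3 TAK1 shRNA samples lay below the scrambled samples, which held for 22.2% of all genes tested.

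**Figure D2:**
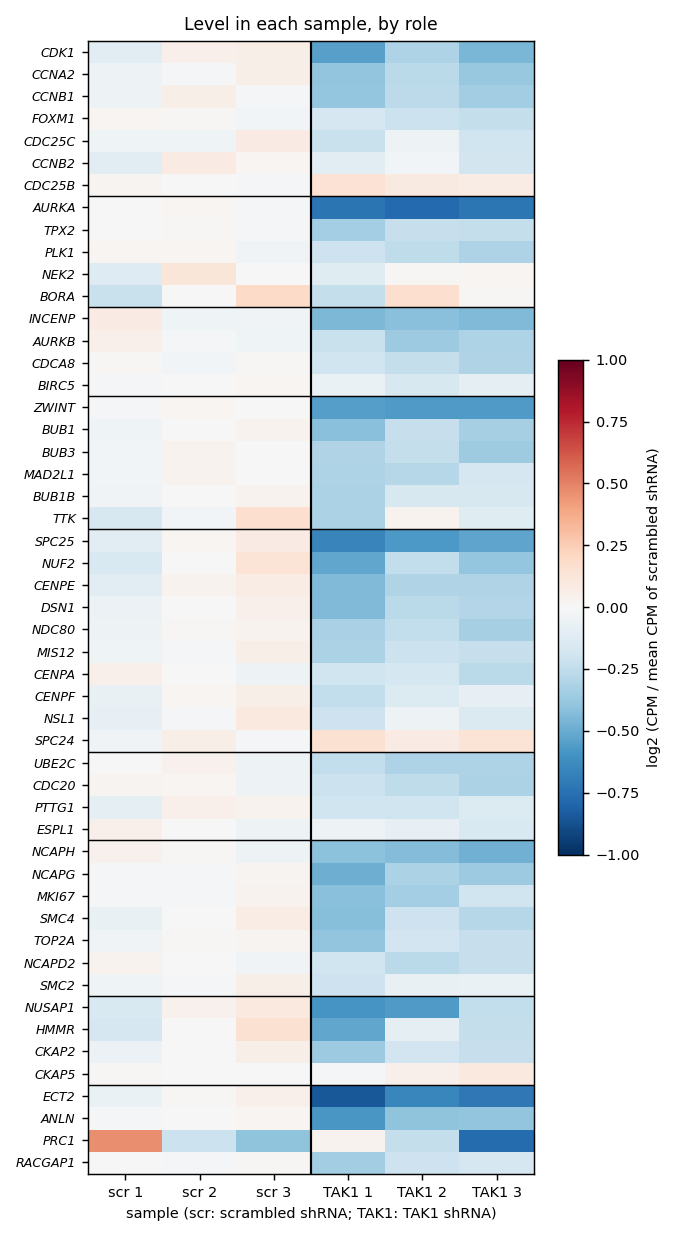
Each row is a gene and each column a sample, scrambled shRNA to the left of the vertical line and TAK1 shRNA to the right. Colour gives the log2 ratio of the sample's CPM to the mean of the 3 scrambled samples, from -1 (blue) to 1 (red), and black lines part the role groups. AURKA, ZWINT, SPC25 and ECT2 are blue in all 3 TAK1 shRNA samples, while PRC1, with 35 to 71 counts, varies within both groups.

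Among the genes of the spindle checkpoint 4 of 6 were downregulated, and ZWINT fell most. ZWINT links the kinetochore to the complex that brings in the checkpoint protein MAD1. It was at 166, 170.3 and 167 CPM in the scrambled samples and at 114, 113 and 114 CPM in the TAK1 shRNA samples (log2 fold change -0.56, SE 0.0462, edgeR adjusted p = 7.47e-10). Its values were tight in both groups, with an SD of 2.22 and 0.467 CPM. The checkpoint kinase BUB1 and its partner BUB3 had log2 fold changes of -0.32 and -0.30. MAD2L1, which blocks CDC20, was at -0.25 and BUB1B, which encodes BUBR1, at -0.21. TTK, the kinase that starts checkpoint signalling, was at 75.5, 83.0 and 94.8 CPM and then at 67.7, 86.6 and 77.5 CPM, so the groups overlapped (log2 fold change -0.13, SE 0.0759, edgeR adjusted p = 0.214). Single samples moved this value, to -0.037 without scrambled replicate 3, -0.042 without TAK1 replicate 1, -0.20 without scrambled replicate 1 and -0.22 without TAK1 replicate 2.

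The NDC80 complex, which grips the microtubule, showed unequal changes among its 4 subunits. SPC25 was at 42.6, 46.8 and 48.9 CPM in the scrambled samples and at 29.2, 31.0 and 32.0 CPM in the TAK1 shRNA samples. It fell by 33.3% (log2 fold change -0.59, SE 0.0688, edgeR adjusted p = 2.84e-07). SPC24, its direct binding partner, was at 76.2, 81.4 and 77.1 CPM and then at 86.7, 82.8 and 86.2 CPM. All 3 TAK1 shRNA samples were above the scrambled ones, which held for 3449 of the 15935 genes tested. The log2 fold change of 0.12 (SE 0.0524) did not pass the test (edgeR adjusted p = 0.0731). The other subunits, NUF2 and NDC80, had log2 fold changes of -0.38 (edgeR adjusted p = 0.000169) and -0.30 (edgeR adjusted p = 0.000179).

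Of the 10 genes of the centromere and outer kinetochore, 6 were downregulated. In the MIS12 complex, which joins NDC80 to the centromere, DSN1 was at -0.33, MIS12 at -0.25 and NSL1 at -0.13. DSN1 and MIS12 passed both thresholds, and NSL1 did not pass the adjusted p. CENPE, a motor that moves chromosomes to the spindle equator, had a log2 fold change of -0.35 (edgeR adjusted p = 2.43e-05). CENPA, the centromeric form of histone H3, was at -0.21 and CENPF, a large outer kinetochore protein, at -0.15, both past the adjusted p and short of the fold threshold.

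At anaphase onset 2 of 4 genes were downregulated. UBE2C, the ubiquitin-conjugating enzyme of the anaphase-promoting complex, was at 200.5, 206 and 193 CPM in the scrambled samples. It was at 169, 161 and 161 CPM in the TAK1 shRNA samples (log2 fold change -0.29, SE 0.0466, edgeR adjusted p = 2.61e-05). CDC20, which brings substrates to that complex, had a log2 fold change of -0.26 (edgeR adjusted p = 5.55e-05). PTTG1, which encodes securin, was at -0.18 (edgeR adjusted p = 0.00962). The near copies PTTG2 and PTTG3P had 0 counts in all samples. ESPL1, which encodes separase, was at 117, 113 and 109 CPM and then at 109, 107 and 102 CPM, with overlapping groups (log2 fold change -0.093, SE 0.0504, edgeR adjusted p = 0.166).

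In the group of condensin and chromosome structure 5 of 7 genes were downregulated. NCAPH, the kleisin that closes the condensin I ring, was at 103, 101 and 96.4 CPM in the scrambled samples and at 75.4, 74.0 and 71.7 CPM in the TAK1 shRNA samples (log2 fold change -0.44, SE 0.0518, edgeR adjusted p = 2.88e-07). NCAPG, another subunit of condensin I, was at -0.39 (edgeR adjusted p = 1.43e-06), and NCAPD2 at -0.23 (edgeR adjusted p = 0.000113). Of the ATPases that condensin I and II share, SMC4 was at -0.31 (edgeR adjusted p = 5.14e-05). SMC2 was at 304, 310.5 and 326 CPM and then at 271, 298 and 299 CPM (log2 fold change -0.12, SE 0.0477, edgeR adjusted p = 0.0663). TOP2A, which untangles DNA, and MKI67, which coats mitotic chromosomes and is the proliferation marker Ki-67, were at -0.27 and -0.32, and both were downregulated. In all 7 genes of this group the TAK1 shRNA samples lay below the scrambled samples, as they did in 22.2% of all genes tested.

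Of the spindle microtubule proteins, NUSAP1, which bundles microtubules near chromatin, was at 18.3, 20.9 and 21.7 CPM in the scrambled samples. It was at 13.5, 13.7 and 17.1 CPM in the TAK1 shRNA samples (log2 fold change -0.46, SE 0.0975, edgeR adjusted p = 0.000634). Exons of other annotated genes overlap 86.8% of its exon bases, so its counts may leave out or share reads. HMMR, which helps place the spindle, was at 42.0, 47.1 and 52.3 CPM and then at 32.8, 44.2 and 40.0 CPM (log2 fold change -0.27, edgeR adjusted p = 0.0174). The call was lost without TAK1 replicate 1, at -0.16, and without scrambled replicate 3, at -0.19. CKAP2 had a log2 fold change of -0.26. CKAP5, a microtubule polymerase used throughout the cell cycle, was at 383, 379 and 380.0 CPM and then at 375, 393 and 406 CPM, with overlap (log2 fold change 0.040, SE 0.0436, edgeR adjusted p = 0.525). The value was 0.0019 without TAK1 replicate 3 and 0.071 without TAK1 replicate 1.

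ECT2 fell about as much as AURKA, and more than AURKA without scrambled replicate 1 (-0.77 against -0.74) or TAK1 replicate 2 (-0.78 against -0.73). It encodes the exchange factor that switches on RHOA for the cleavage furrow, and was at 119, 126 and 129 CPM in the scrambled samples. In the TAK1 shRNA samples it was at 69.6, 79.4 and 76.2 CPM, a fall of 39.9% (log2 fold change -0.73, SE 0.0552, edgeR adjusted p = 1.46e-10). RACGAP1, which binds and activates ECT2 at the central spindle, was at 149, 147 and 149 CPM and then at 117, 128 and 132 CPM. Its log2 fold change of -0.24 (SE 0.0511, edgeR adjusted p = 0.000679) was just under the fold threshold, which it passed without TAK1 replicate 2, at -0.26, and without TAK1 replicate 3, at -0.29. ANLN, the scaffold anillin of the contractile ring, went from 344 ± 5.13 to 250.5 ± 17.9 CPM (log2 fold change -0.46, edgeR adjusted p = 7.12e-08).

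PRC1, which crosslinks the microtubules of the central spindle, had 35 to 71 counts per sample, the lowest of any member. Exons of other annotated genes, 1 of them on the same strand, overlap 61.9% of its exon bases, and how the counting treated such reads was not given in the sources used here. Its log2 fold change of -0.29 had an SE of 0.283 (edgeR adjusted p = 0.481). It became 0.013 without scrambled replicate 1. In all, 18 members have exon bases that overlap another GENCODE 44 gene, 4 of them on the same strand, and 33 have none.

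The largest falls were not in the members with the highest levels. Per kilobase of the canonical transcript, UBE2C was highest in the scrambled samples at 257 CPM per kb, followed by CDC20 at 214 and PTTG1 at 149, and the lowest after PRC1 were NSL1 at 2.96 and BORA at 3.32 CPM per kb. On this scale the members with the largest falls ranked 10 (ZWINT, 90.4 CPM per kb), 12 (AURKA, 78.3 CPM per kb), 30 (SPC25) and 36 (ECT2, 30.2 CPM per kb) of 51. The low rank of NSL1 depends on its canonical transcript of 13115 bases, and the gene was at 38.8 CPM in the scrambled samples. SPC25 and SPC24 had similar levels per kilobase in the scrambled samples, at 34.4 ± 2.39 and 34.2 ± 1.22 CPM per kb. In the TAK1 shRNA samples they were at 22.9 ± 1.04 and 37.2 ± 0.914 CPM per kb.

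**Figure D3:**
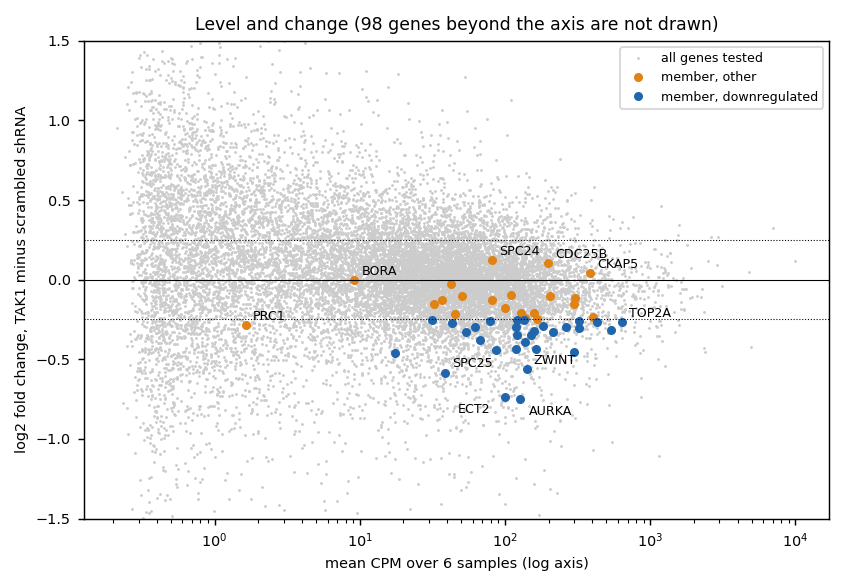
Mean CPM over the 6 samples is on the x axis (log axis) and the log2 fold change on the y axis, for all genes tested in grey and for the members in colour. The y axis ends at 1.5 in each direction, which leaves out 98 genes. Of the 51 members 48 lie under 0, across levels from 1.64 CPM (PRC1) to 640.4 CPM (TOP2A).

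Count ratios within a sample do not depend on the scaling between samples. For 8 pairs of related members, chosen after their values were seen, the ratio of counts was compared between the groups. Exact permutation tests gave no p below 0.1, the lowest that 3 against 3 samples allow. For pairs chosen in this way no conclusion is drawn from them. SPC24 over SPC25 rose from 1.70 ± 0.112 to 2.78 ± 0.162 (SD, n = 3). AURKA over AURKB went from 1.22 ± 0.0349 to 0.892 ± 0.0333, and TPX2 over AURKA from 2.96 ± 0.0156 to 4.13 ± 0.222. The groups did not overlap in any of these 3 ratios. How often ratios of other gene pairs separate the groups was not computed, so no conclusion is drawn from a lack of overlap here or in the pairs that follow.

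The ratios of the cyclin, phosphatase and ATPase pairs moved less. CCNB1 over CCNB2 went from 4.52 ± 0.157 to 3.86 ± 0.159, CDC25B over CDC25C from 5.58 ± 0.345 to 6.69 ± 0.533, and SMC2 over SMC4 from 0.879 ± 0.0151 to 1.00 ± 0.0328, each with no overlap. NDC80 over NUF2 (0.899 ± 0.0631 and 0.950 ± 0.0695) and BUB1 over BUB3 (0.607 ± 0.0165 and 0.596 ± 0.0310) overlapped between the groups.

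**Figure D4:**
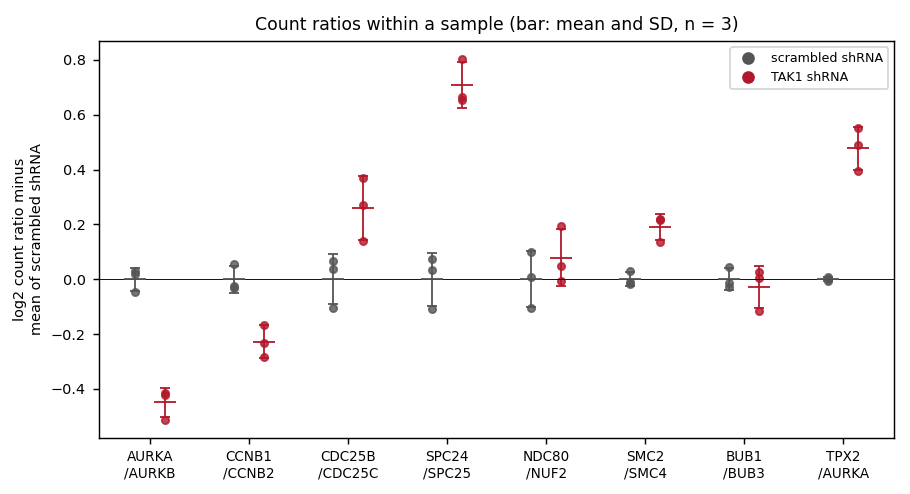
The log2 count ratio of 8 gene pairs, minus its mean in scrambled shRNA, is on the y axis, with a point per sample and the mean and SD (n = 3) as bars. Scrambled shRNA is grey and TAK1 shRNA is red. SPC24 over SPC25 lies highest in TAK1 shRNA, at a mean of 0.71, and AURKA over AURKB lowest, at -0.45.

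A CHR was found in the window of 31 of the 43 members with a window (72.1%), against 19.5% of 27305 genes with a RefSeq window. A CCAAT box was found in 32 (74.4%), against 39.7%, and both motifs in 24 (55.8%), against 7.85%. Of the 48 CHR matches 68.8% began within 50 bases of the start site, against 27.3% of the matches in all windows, and the median position was -28.5 against -125. Of the CCAAT boxes 65.1% lay 51 to 150 bases before the start, against 47.4% in all windows. Genes with several starts have several windows that may overlap, as 10 members do. These are descriptions of letters in a window and not of bound sites.

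Downregulated members were found with and without each motif. With a CHR 18 of 31 were downregulated, with a median log2 fold change of -0.27, and without it 8 of 12, with a median of -0.28. With a CCAAT box 18 of 32 were downregulated, and without it 8 of 11. In the windows printed above, SPC25 has a CHR that begins at -3 from the start site and ECT2 has a CHR that begins at 35. SPC24 and NEK2, whose level changed least among members without a CHR, have CCAAT boxes alone. An E2F motif (TTCGCGC or TTGGCGC), added after the values were seen, was found in 7 of the 43 members (16.3%), against 6.10% of all genes. These 7 members, CCNB1, CDK1, ECT2, MAD2L1, NUSAP1, SMC4 and ZWINT, were all downregulated, as were 19 of the 36 without the motif. For a motif added in this way no conclusion is drawn from these counts. In ECT2 the match overlaps a CCAAT box. No window was given for AURKA, BIRC5, BUB3, FOXM1, RACGAP1, TPX2, TTK and UBE2C.

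**Figure D5:**
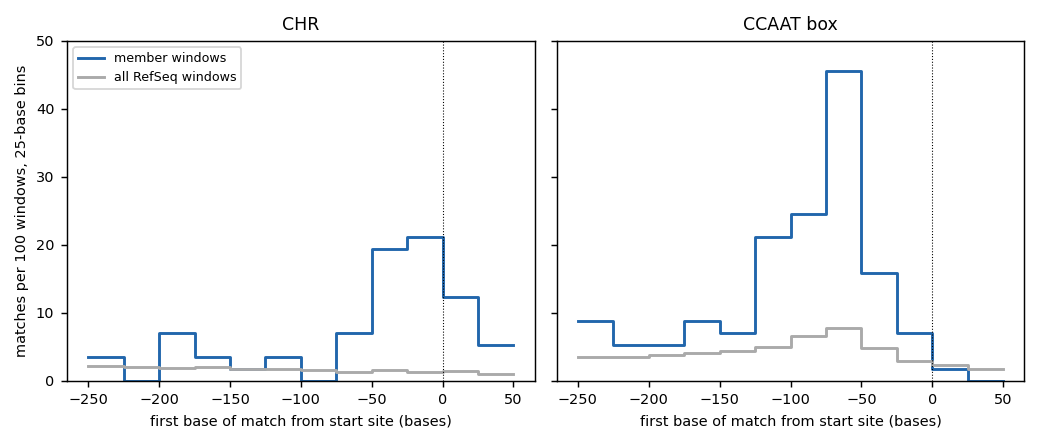
The distance of a motif's first base from the start site is on the x axis in bins of 25 bases, and the number of matches per 100 windows on the y axis, for the 57 member windows (blue) and all 35116 RefSeq windows (grey). CHR matches of the members peak in the bin from -25, at 21.1 per 100 windows, and CCAAT boxes in the bin from -75, at 45.6.

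Other genes of mitosis, outside the 51, were read from hand-made lists. For scale, 11.3% of all genes tested were downregulated. Among 15 further genes of the outer kinetochore and checkpoint 10 were downregulated (median log2 fold change -0.32). KNL1, which holds the checkpoint proteins at the kinetochore, went from 104 ± 3.22 to 61.7 ± 5.38 CPM (log2 fold change -0.75). SGO1, which protects cohesin at the centromere, went from 20.8 ± 0.856 to 13.0 ± 0.653 CPM (-0.68). Of 16 genes of the inner kinetochore 5 were downregulated (median -0.21), led by CENPQ at -0.65 and CENPI at -0.43. Among 20 spindle assembly genes 8 were downregulated (median -0.22), led by DEPDC1 at -0.75 and CEP55, which acts in abscission, at -0.42.

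Fewer genes of cohesin and of the anaphase-promoting complex passed both thresholds, and differences between the lists were not tested. Their downregulated shares, 7.69% and 17.6%, were near the 11.3% of all genes tested. At the adjusted p alone 17.2% of all genes tested were lower. Of 13 cohesin genes 1 was downregulated, WAPL, which releases cohesin, at -0.29 (median -0.17), while 8 were lower at the adjusted p alone. Of 17 genes of the anaphase-promoting complex and its regulators 3 were downregulated (median -0.021), of which CDC27 was at -0.45 and FBXO5, its inhibitor, at -0.41. Of 3 condensin II genes NCAPG2 was downregulated, at -0.40. Among 18 regulators of mitotic entry and exit 4 were downregulated (median -0.17), led by CDC25A at -0.52 and LIN52, a subunit of DREAM, at -0.31. Among 9 genes of centriole duplication 3 were downregulated (median -0.18), led by PLK4 at -0.44 and STIL at -0.33. In each of these lists 0 genes were upregulated, against 11.8% of all genes tested.

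The fall was shared with genes of DNA replication and with the kinesins. Of 30 genes of replication licensing and the fork 17 were downregulated (56.7%, median log2 fold change -0.31), among them PCNA at -0.50 and CDC6 at -0.48. Of 12 mitotic kinesins 6 were downregulated (median -0.26), with KIF23, which forms a complex with RACGAP1, at -0.80 and KIF15 at -0.65. The share of the 51 members that was downregulated, 58.8%, was close to that of the replication genes, and the difference between the lists was not tested. Over all genes tested the share was 11.3%. Of the 7 muscle lineage markers 3 were upregulated, CHRNG at 0.47, MYOD1 at 0.37 and MYOG at 0.27, and CHRNA1 was downregulated at -0.40, and their part in the members' change was not tested.

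Members near the fold threshold changed their call most easily. PLK1, MAD2L1 and MIS12, all at -0.25, lay just past it, and CDCA8 and RACGAP1, at -0.24, and NCAPD2, at -0.23, just under it. With a threshold of 0.5 in place of 0.25, AURKA, ECT2, SPC25 and ZWINT were the 4 downregulated members. The count of downregulated members was 25 without TAK1 shRNA replicate 1 and 28 to 30 without any other single sample.

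Leaving out a single sample moved the call of 12 members. Without TAK1 replicate 1 the call was lost for TPX2 (-0.23), MAD2L1 (-0.23), MIS12 (-0.22), SMC4 (-0.25), TOP2A (-0.21), HMMR (-0.16) and CKAP2 (-0.21), and gained for CDCA8 (-0.27) and NCAPD2 (-0.25). Without scrambled replicate 3 it was lost for MIS12 (-0.22), HMMR (-0.19) and CKAP2 (-0.23), and gained for NCAPD2 (-0.25). PLK1 lost it without scrambled replicate 1 (-0.25), scrambled replicate 2 (-0.24) or TAK1 replicate 3 (-0.24). CDC20 lost it without scrambled replicate 1 (-0.25) or TAK1 replicate 3 (-0.24), and MAD2L1 without scrambled replicate 2 (-0.24) or TAK1 replicate 2 (-0.23). CDCA8 gained it without scrambled replicate 2 (-0.26), and RACGAP1 without TAK1 replicate 2 (-0.26) or TAK1 replicate 3 (-0.29). Each of these changes kept its direction.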

How the data were processed

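RNA from RD cells with scrambled or TAK1 shRNA was sequenced in 3 samples each. The authors called bases with CASAVA, removed adaptor and low-quality reads, aligned to GRCh38 with STAR and deposited raw counts per gene symbol. The counting program, annotation release and use of strand were not given in the sources used here. Groups came from the sample labels.

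The counts were filtered with filterByExpr and scaled by the trimmed mean of M-values. They were compared by the edgeR 4.0.16 quasi-likelihood test (R 4.3.3) with Benjamini-Hochberg adjustment over 15935 genes, the study's thresholds (adjusted p of 0.05, absolute log2 fold change of 0.25) and no replicate term. Each SE was derived from the log2 fold change and its F statistic. The alternatives used DESeq2 1.42.0, voom of limma 3.58.1, other scalings, filters and fold thresholds, a replicate block and the omission of each sample. Each pair of replicates differed by more than sampling noise (chi-square per degree of freedom of 2.87 to 8.67). The depth of 28839898 to 34469323 counts leaves counting error below replicate spread except in genes of low counts.

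Members were sorted into 9 role groups. In each group the members with the lowest and highest log2 fold change, and CDK1, CCNB1 and CCNA2, were given in full, and at most 2 called genes per direction were named from each other list. The members and lists were chosen with earlier results of these data known. The tests were checked on simulated data.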

Additional observations from a re-analysis of the deposited data

How the results depend on the processing

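The count of downregulated members, 30 in the report, was recomputed under 16 alternatives. It was 30 with DESeq2, limma voom and relative log expression, 24 with upper-quartile scaling, 31 without a count filter and 28 with at least 10 counts in every sample. Scaling by library size alone gave 19 downregulated members and a median log2 fold change of -0.22, and it moved the median of all genes tested from 0.018 to 0.066 and the calls over all genes from 1805 lower and 1879 higher to 1404 lower and 2376 higher (62.9% higher). A fold threshold of 0.5 left 4 members, and no fold threshold gave 38. Leaving out each sample in turn gave 25 to 30 downregulated members, medians of -0.29 to -0.25 and 0 upregulated members, and 0 were upregulated under every alternative run. Of the 30, a total of 18 kept the call under all alternatives at the threshold of 0.25 or below, and 12 lost it in at least 1 (PLK1, TPX2, AURKB, BUB3, MAD2L1, MIS12, CDC20, UBE2C, SMC4, TOP2A, HMMR and CKAP2).

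The sign turned for 3 members near 0 or of low counts. BORA was at 0.012 with upper-quartile scaling, 0.044 with library size alone, 0.10 without scrambled replicate 3 and 0.094 without TAK1 replicate 1, in a range of -0.11 to 0.10 over the omissions. NEK2 was at 0.021 with library size alone, 0.037 without scrambled replicate 2 and 0.018 without TAK1 replicate 1, in a range of -0.087 to 0.037. PRC1 was at 0.013 without scrambled replicate 1, in a range of -0.47 to 0.013. The cause was not tested.

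Deviations of same-numbered samples had correlations of 0.037, 0.036 and 0.016, and those of samples with different numbers -0.052 to 0.019. All of these are near 0 and were taken over all genes tested, many of low counts, so they cannot settle whether the numbers pair the samples. With the replicate number as a block, 30 members were downregulated, the same 30 as without it, and the median was -0.27. With 3 samples a group, an exact permutation test cannot go below p = 0.1.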
